A study of Mus musculus with 14 samples.

Results

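The genes analysed here are 10 endothelial genes whose products sense or answer blood flow, or set the tone of vessels: Klf2, Klf4, Nos3, Edn1, Ednrb, Ece1, Adm, Ptgis, Ptgs1 and Ace. They were taken by name, as the rows of the count table whose Ensembl ID carries one of these symbols in GENCODE vM21, and they are 10 of 54524 genes in the table. RNA was sequenced from liver sinusoidal endothelial cells (LSECs), the fenestrated endothelium that lines the liver capillaries, of male Balb/c mice aged 10 to 12 weeks. The groups were 4 healthy mice and mice killed at day 1 (2 mice), day 3 (4 mice) and day 7 (4 mice) after 1 intraperitoneal injection of CCl4 at 0.5 µL per g in mineral oil. CCl4 is a solvent that injures hepatocytes. The healthy mice were not injected, so the effects of CCl4 and of the oil injection cannot be told apart. Day 1 has 2 mice because the RNA of other samples was of too low quality. LSECs were sorted from fresh livers as CD32+ F4/80- cells that were negative for autofluorescence and propidium iodide, and per the study's methods also for CD45, a gate meant to remove leukocytes, and every sample was a different mouse.

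Flowing blood drags along the endothelium, and this shear stress is passed through kinases to MEF2 factors that switch on Klf2 and Klf4. These zinc finger factors are known to raise Nos3, the endothelial nitric oxide synthase, and thrombomodulin (Thbd), and to hold down Edn1, the constrictor peptide endothelin 1. In the liver sinusoid, nitric oxide from LSECs relaxes the neighbouring stellate cells, while endothelin contracts them through the receptor Ednra. The endothelial receptor Ednrb clears endothelin and can release nitric oxide.

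At day 3 both shear-responsive factors were lower and the endothelin pair was higher. Klf2 and Klf4 were lower at day 3 (3.92-fold and 2.73-fold), and Edn1, Ednrb and Ace were higher at day 1 and day 3 (5.32-fold to 10.8-fold at day 1, 5.47-fold to 6.94-fold at day 3). Nos3 was 4.31-fold higher at day 1. The mean of Klf2 was then 815 CPM (the count scaled to library size) against 2274 in healthy LSECs. That Klf2 difference was not called (adjusted p = 0.164 with edgeR). No Nos3 sample lay above the healthy range from day 3 on. At day 7 no gene of the 10 passed the test. With edgeR's quasi-likelihood test and a Benjamini-Hochberg adjusted p under 0.05, 4 of the 10 genes were called at day 1, all of them higher. Of the 26626 genes tested, 4.06% were called at day 1 (2.42% higher and 1.64% lower). At day 3 the test called 6 of the 10 (3 higher, 3 lower), against 7.19% of all genes (4.62% higher and 2.58% lower). At day 7 it called 0 of the 10 with edgeR, against 3.18% of all genes (2.19% higher and 0.992% lower). At day 7, 7 of the 10 had an unadjusted p under 0.05, DESeq2 called 3 and limma called 7. No share of all genes is given here for that p, DESeq2 or limma, so these counts cannot be set against one. At day 7 limma also called 47 of the 113 other pathway genes described below, and edgeR 9 higher and 7 lower. All 10 genes passed the filter on low counts. Without day 1 replicate 1, Nos3 alone of the 10 was called at day 1. The samples of both groups did not overlap for 8 of the 10 at day 1, 6 at day 3 and 5 at day 7, where 37.9%, 14.4% and 20.8% of all genes did not overlap. The 3 comparisons share the healthy mice.

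**Figure D1:**
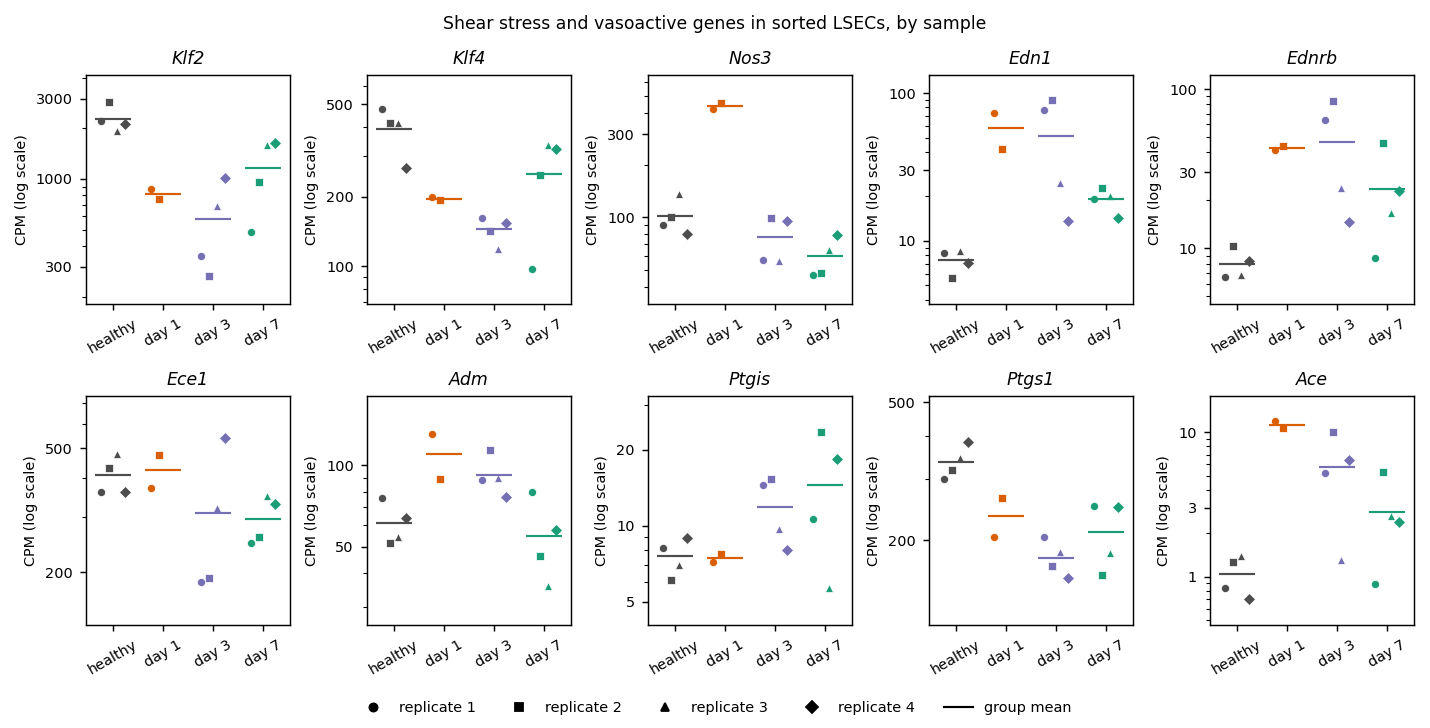
CPM (scaled with TMM; log axis) of the 10 genes in each of the 14 samples. Symbols stand for the replicate number, colours for the group, and bars for the group mean; Nos3 is high in both day 1 samples only, and day 3 replicates 1 and 2 hold the highest Edn1 and Ednrb values of their group.

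The samples had 46401496 to 103912264 counts on genes, and 22986 to 34768 genes were detected, with the fewest in day 3 replicate 4. The mitochondrial share of counts was 3.04% to 3.65% in healthy samples, 3.51% and 4.49% at day 1, 3.06% to 5.87% at day 3, then 5.28% to 9.87% at day 7, and its part in the results at day 3 and day 7 was not tested. Of the 10 LSEC markers (among them Stab2, Lyve1, Clec4g and Fcgr2b, which encodes CD32b), none was under 3 counts in all samples of a group. Their summed level was 16880 to 21070 CPM in healthy samples and 9883 to 14760 CPM in all later ones. The test called 2 of the 10 lower and 1 higher at day 1, 3 lower and 1 higher at day 3, and 0 at day 7. The median of Lyve1 was 372 CPM in healthy samples, 3208 at day 1 and 929 at day 3. Although the sort gates on CD45 and F4/80, RNA of leukocyte genes was present. The summed level of 10 monocyte and neutrophil markers was 522 to 1417 CPM in healthy samples, 4490 and 8578 at day 1, and 4201 to 9686 at day 7. At day 3 it was 13270 and 8067 CPM in replicates 1 and 2 and 1498 and 1384 in replicates 3 and 4. The test called 5 of these 10 higher at day 1, 4 at day 3 and 1 at day 7. At day 7 the sum was mostly Lyz2 (3918 to 9303 CPM, against 427 to 1200 in healthy samples). The neutrophil genes S100a8 (median 34.8 CPM, 28.7 in healthy samples) and S100a9 (74.6 and 73.6) and the monocyte gene Ly6c2 (16.7 and 16.8) had medians near the healthy ones. Higher medians than in healthy samples were seen for Ccr2 (58.75 and 13.05), Itgam (23.8 and 5.45), Csf3r (18.5 and 5.89), Plac8 (52.6 and 31.0), Retnlg (12.2 and 4.7) and Cxcr2 (4.0 and 2.0). Kupffer cell and macrophage markers summed to 296 CPM in healthy replicate 1 and 1366 to 1963 in the other healthy samples. They stood at 2281 and 1070 CPM at day 1, 814 to 2102 at day 3, then 887 to 1903 at day 7. Stellate cell markers summed to 317 to 510 CPM in healthy samples, 370 and 451 at day 1, 1008 to 2859 at day 3, then 674 to 7893 at day 7. Hepatocyte markers stood at 9330 CPM in healthy replicate 4, against 223 to 452 in the other healthy samples, 33.8 and 140 at day 1, 1106 to 3461 at day 3, then 909 to 6814 at day 7. A list of 18 immediate early and dissociation genes summed to 27030 to 29650 CPM in healthy samples and 15070 to 21240 in all later ones. Of these 18, 2 were called lower and 1 higher at day 1, 3 lower and 1 higher at day 3, and 1 lower at day 7. In such bulk samples, fewer cells of a type and less RNA per cell cannot be told apart.

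The proximal promoters of genes that moved together are given first, since MEF2 factors carry the flow signal to Klf2, and KLF factors bind CACCC boxes. RefSeq promoter windows on GRCm38.p6 were matched for 8 of the 10 genes. Each sequence below is the stretch of up to 250 bases before the start site, read 5′ to 3′ on the strand of the gene, without bases that GENCODE annotates as exon. Capitals mark a match to the MEF2 motif or to CACCC on either strand (written GGGTG where it lies on the other strand). The windows are chr8:72318812-72319032 (plus strand) for Klf2, chr4:55532476-55532725 (minus strand) for Klf4, chr13:42301226-42301475 (plus strand) for Edn1 and chr14:103843702-103843951 (minus strand) for Ednrb. The Ednrb window precedes the RefSeq start but lies inside the longer GENCODE span of the gene (103814625 to 103844402), in bases not annotated as exon.
Klf2: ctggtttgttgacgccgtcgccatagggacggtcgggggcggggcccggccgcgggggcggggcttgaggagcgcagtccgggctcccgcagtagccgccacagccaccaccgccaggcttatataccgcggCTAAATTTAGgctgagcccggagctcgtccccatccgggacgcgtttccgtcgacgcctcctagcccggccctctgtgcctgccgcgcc
Klf4: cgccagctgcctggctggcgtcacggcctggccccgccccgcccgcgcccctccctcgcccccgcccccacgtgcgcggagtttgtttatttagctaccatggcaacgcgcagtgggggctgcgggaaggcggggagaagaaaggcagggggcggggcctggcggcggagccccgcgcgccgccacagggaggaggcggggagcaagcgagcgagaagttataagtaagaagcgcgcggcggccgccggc
Edn1: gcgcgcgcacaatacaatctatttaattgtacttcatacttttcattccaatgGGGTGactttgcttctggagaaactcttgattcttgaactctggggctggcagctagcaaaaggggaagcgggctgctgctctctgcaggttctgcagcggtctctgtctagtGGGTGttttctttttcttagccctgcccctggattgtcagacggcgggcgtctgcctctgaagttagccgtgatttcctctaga
Ednrb: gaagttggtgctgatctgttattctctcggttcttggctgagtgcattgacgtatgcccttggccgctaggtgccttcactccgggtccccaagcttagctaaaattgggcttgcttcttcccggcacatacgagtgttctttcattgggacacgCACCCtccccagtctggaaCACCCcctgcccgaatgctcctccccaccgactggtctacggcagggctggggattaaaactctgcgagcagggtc

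The MEF2 motif (searched on both strands) was found in the Klf2 window alone among the 8 genes, starting 118 bases before the start site. Of 32817 RefSeq promoter windows of 250 bases, 2.92% held it. A CACCC match was found in 5 of the 8 windows (Klf2, Edn1, Ednrb, Ece1 and Ace), with 2 matches each in Edn1 and Ednrb, and in 52.0% of all windows. The 1 match in Klf2 lies 19 bases before the start site, in the exon bases left out of the printed stretch. The AP-1 motif TGANTCA was in none of the 8 windows and in 6.75% of all windows. The same held for TGATAA, which GATA factors bind, with 7.95% of all windows. ACGTG was found in Klf4 alone, and in 16.6% of all windows. A TATAA box was in the windows of Klf2, Klf4, Adm and Ace, and in 22.8% of all windows. These matches are letters in a window, not measured binding sites.

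Klf2 (chromosome 8, 72319033 to 72321656) is the factor that laminar flow induces in endothelium. Its level in healthy LSECs was 2196, 2846, 1928 and 2123 CPM. At day 1 it was 867 and 764 CPM, at day 3 it was 348, 266, 687 and 1017 CPM, and at day 7 it was 483, 955, 1580 and 1631 CPM. Every sample after CCl4 lay below every healthy one, with the lowest values in day 3 replicates 1 and 2 and the values nearest to healthy in day 7 replicates 3 and 4. Klf2 was lower at day 3 (log2 fold change -1.97 ± 0.43 SE, adjusted p = 0.0164). At day 1 (-1.48 ± 0.55, adjusted p = 0.164) and day 7 (-0.97 ± 0.42, adjusted p = 0.21) the difference did not pass the test.

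Klf4 (chromosome 4, 55527143 to 55532466), its close relative, had 478, 414, 414 and 267 CPM in healthy LSECs. It had 199 and 193 CPM at day 1, 161, 142, 119 and 154 at day 3, and 96.9, 249, 335 and 322 at day 7. All day 1 and day 3 samples lay below all healthy ones, whereas day 7 spanned from the lowest value of the series to within the healthy range. Klf4 was lower at day 3 (-1.45 ± 0.31, adjusted p = 0.0157). The day 1 (-1.01 ± 0.40, adjusted p = 0.191) and day 7 (-0.65 ± 0.31, adjusted p = 0.248) differences were not called. Per length, Klf2 exceeded Klf4 by 7.58 to 13.2 times in healthy LSECs and by 3.08 and 3.56 times in day 3 replicates 2 and 1, but by 9.52 and 10.9 times in day 3 replicates 3 and 4.

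The 2 day 3 samples with the lowest Klf2 had the most monocyte and neutrophil markers and the most Kupffer cell and macrophage markers of their group. The summed immediate early genes were lower in all samples after CCl4, as given above. The part of these lists in the result was not tested. Without day 3 replicates 1 and 2, Klf4 was still lower (-1.54, adjusted p = 0.0399) and Klf2 had a log2 fold change of -1.44 (adjusted p = 0.0531). Both genes kept their day 3 call without any single library.

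Of all genes tested, 4.06% were called at day 1, 7.19% at day 3 and 3.18% at day 7. Counts of called genes in this and the later lists stand beside these shares. Of 21 genes that sense flow or lead to Klf2 (channels, junction proteins, the MEK5-ERK5 kinases, MEF2 factors and the CCM complex), 2 were higher and 1 lower at day 1, and 1 was higher at day 3 and at day 7. Heg1, the transmembrane partner of the CCM complex, rose from 113 ± 8.43 CPM (SD, n = 4) to 329 ± 9.77 (n = 2) at day 1 (log2 fold change 1.54 ± 0.18, adjusted p = 0.000414) and stayed higher at day 3 (0.80 ± 0.15, adjusted p = 0.00881) and day 7 (0.63 ± 0.15, adjusted p = 0.0416). Cdh5, the VE-cadherin of the junctional flow sensor, rose from 289 to 604 CPM at day 1 (1.06 ± 0.22, adjusted p = 0.0137). Kdr, the VEGF receptor of the same sensor, fell from 2215 to 676 CPM at day 1 (-1.71 ± 0.35, adjusted p = 0.0131). The day 1 calls of Cdh5 and Kdr were lost without either day 1 library (adjusted p up to 0.139 and 0.354), and those of Heg1 without healthy replicate 4 or day 3 replicate 3 at day 3 (up to 0.0616) and without any of 11 libraries at day 7 (up to 0.138). The median log2 fold change of the list was 0.03 at day 1, -0.05 at day 3 and -0.12 at day 7, beside -0.03, 0.18 and 0.02 for all genes tested.

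Among 15 genes linked to Klf2 and Klf4 under laminar flow, 3 were higher at day 1, 3 lower at day 3 and 2 lower at day 7. Thbd, which turns thrombin into an anticoagulant, went from 98.2, 150, 172 and 122 CPM to 1488 and 1637 CPM at day 1 (3.53 ± 0.41, adjusted p = 0.000382). S1pr1, the sphingosine 1-phosphate receptor that seals junctions, went from 188 to 231 CPM in healthy samples to 608 and 599 CPM (1.53 ± 0.20, adjusted p = 0.000781). Hmox1, the heme oxygenase, rose to 814 and 280 CPM from 61.6 to 179 CPM (1.97 ± 0.40, adjusted p = 0.0133), a call that rests on day 1 replicate 1, without which the log2 fold change was 0.96 (adjusted p = 0.646). At day 3 the lower genes were Tek, the angiopoietin receptor (-1.24 ± 0.20, adjusted p = 0.00425), and the factors Klf9 (-1.08 ± 0.18, adjusted p = 0.00436) and Klf10 (-0.81 ± 0.19, adjusted p = 0.0212). At day 7 they were Tek (-0.91 ± 0.20, adjusted p = 0.0301) and S1pr1 (-0.71 ± 0.17, adjusted p = 0.0394). The day 3 call of Klf10 was lost without healthy replicate 2, healthy replicate 3 or day 3 replicate 2 (adjusted p up to 0.055). The day 7 calls of Tek and S1pr1 were lost without any of 10 and 12 libraries (adjusted p up to 0.103 and 0.153). Thbd at day 3 (0.16 ± 0.34, adjusted p = 0.823) and day 7 (-0.64 ± 0.34, adjusted p = 0.293) was not called.

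**Figure D2:**
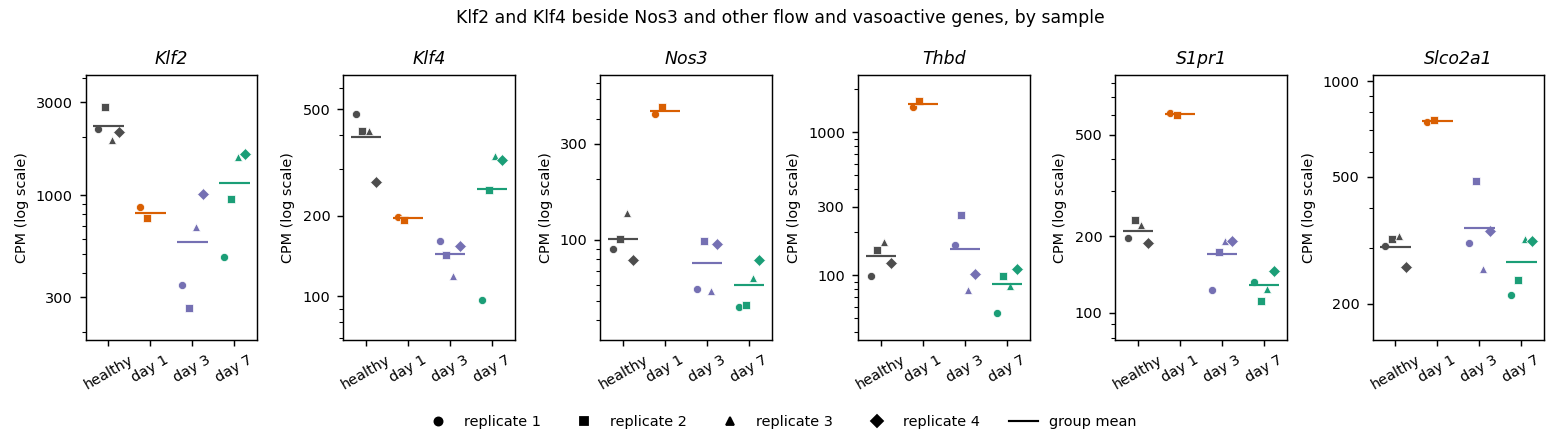
CPM (log axis) of Klf2, Klf4, Nos3, Thbd, S1pr1 and Slco2a1 in each sample, with symbols for the replicate number and bars for the group mean. At day 1, Klf2 and Klf4 lie below all healthy samples while Nos3, Thbd, S1pr1 and Slco2a1 lie above them. The day 1 differences of Klf2 and Klf4 were not called (adjusted p = 0.164 and 0.191 with edgeR). With 2 samples at day 1, 37.9% of all genes did not overlap with healthy.

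Nos3 (chromosome 5, 24364810 to 24384474), which makes nitric oxide in endothelium, had 90.1, 101, 136 and 79.9 CPM in healthy LSECs. It had 421 and 455 CPM at day 1, 57.2, 98.9, 55.9 and 96.0 at day 3, and 46.5, 47.8, 64.7 and 79.7 at day 7. Both day 1 samples lay far above all others, and all day 7 samples lay below the healthy ones. Nos3 was higher at day 1 (2.11 ± 0.30, adjusted p = 0.00134), and the call held without any single library. The sum of 12 markers of other endothelium was 2518 and 3087 CPM at day 1, against 1410 to 1496 in healthy samples, with 1 of the 12 called higher. The sum differed mostly through Ly6a (median 151 CPM in healthy samples, 774 at day 1) and Gja4 (211 and 642). Higher medians at day 1 were also found for Rspo3 (29.3 and 157), Cd9 (42.0 and 165), Vwf (7.8 and 15.7) and Gja5 (4.64 and 5.75). Plvap (642 and 692), Emcn (246 and 248), Sox17 (77.7 and 77.9), Cd34 (38.6 and 22.0), Prox1 (6.44 and 3.07) and Aplnr (1.17 and 0.494) had medians near or below the healthy ones. The part of these 12 markers in the Nos3 result was not tested. The day 3 (-0.40 ± 0.25, adjusted p = 0.39) and day 7 (-0.77 ± 0.25, adjusted p = 0.108) differences from healthy were not called. From day 1, Nos3 fell by day 3 (-2.51 ± 0.30, adjusted p = 0.00195) and by day 7 (-2.88 ± 0.30, adjusted p = 0.000202), where 2.54% (1.57% higher, 0.969% lower) and 8.04% (3.65% higher, 4.4% lower) of all genes were called.

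Nos3 shares 32.3% of its exon bases with genes on the other strand, Atg9b and the antisense RNA Gm15587, and since the libraries do not keep strand, reads of the partners cannot be told apart there. Gm15587 followed Nos3 (15.03 CPM in healthy samples, 57.5 at day 1, 10.9 at day 3 and 8.15 at day 7; 1.94 ± 0.30 at day 1, adjusted p = 0.00299). Atg9b, at 4.33 CPM in healthy samples and 2.89 at day 1, was not called. Edn1, Ptgis, Ptgs1 and Ace share 1.64% to 6.08% of their exon bases with a gene on the other strand.

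Of 26 other genes of nitric oxide production and response, 2 were higher and 1 lower at day 1, 5 and 2 at day 3, and 2 and 2 at day 7. The arginine transporter Slc7a1 rose at day 1 (9.96 to 36.9 CPM, 1.89 ± 0.31, adjusted p = 0.00387) and day 3 (37.8 CPM, 1.93 ± 0.27, adjusted p = 0.00209). Arg2, an arginase that uses the same substrate as Nos3, rose at day 1 (7.83 to 57.6 CPM, 2.88 ± 0.70, adjusted p = 0.0343) and day 3 (48.8 CPM, 2.64 ± 0.63, adjusted p = 0.0232), with 88.8 and 81.0 CPM in day 3 replicates 1 and 2 against 12.8 and 12.4 in replicates 3 and 4. Cav2, a caveolin, was lower on all 3 days, most at day 3 (338 to 103 CPM, -1.71 ± 0.27, adjusted p = 0.00317). Cav1, the caveolin that inhibits Nos3, was not called, with 9.72 CPM in healthy samples, 7.66 at day 1, 4.32 at day 3 and 7.68 at day 7. The subunits of soluble guanylate cyclase, the nitric oxide receptor, were higher at day 3 and day 7 (Gucy1a1 2.95 CPM in healthy samples, 1.06 at day 1, 31.6 and 31.9 later; Gucy1b1 2.41, 0.665, 6.45 and 10.7). On those days 10 and 11 of 12 stellate cell markers were called higher, and their part in this result was not tested. The day 1 calls of Slc7a1, Arg2 and Cav2 were lost without any of 1, 5 and 9 libraries, with the highest adjusted p (0.0695, 0.487 and 0.585) without day 1 replicate 1. The day 3 call of Arg2 was lost without any of 5 libraries (up to 0.0709), and without day 3 replicates 1 and 2 Arg2 was at 0.65 (adjusted p = 0.337). The day 7 call of Cav2 was lost without any of 8 libraries and the day 3 call of Gucy1b1 without any of 11 (adjusted p up to 0.112 and 0.123). The day 7 call of Gucy1b1 was lost without healthy replicate 1 (adjusted p = 0.0556).

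Edn1 (chromosome 13, 42301476 to 42307990), the endothelin 1 ligand, was low in healthy LSECs, at 8.24, 5.603, 8.54 and 7.13 CPM. It was 73.6 and 41.6 CPM at day 1, 77.0, 89.4, 24.7 and 13.7 at day 3, and 19.3, 22.7, 19.99 and 14.3 at day 7. Every sample after CCl4 lay above every healthy one, and the day 3 samples fell into a high and a low pair. Edn1 was higher at day 1 (2.96 ± 0.54, adjusted p = 0.00795) and day 3 (2.79 ± 0.49, adjusted p = 0.00603), and the day 7 difference was not called (1.37 ± 0.47, adjusted p = 0.119). With the replicate number added to the edgeR model, the day 1 value was 2.51 (adjusted p = 0.0553). Without day 1 replicate 1 the day 1 value was 2.46 (adjusted p = 0.131). Without day 3 replicates 1 and 2 the day 3 value was 1.35 (adjusted p = 0.0198).

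Ednrb (chromosome 14, 103814625 to 103844402), an endothelin receptor of endothelium, had 6.62, 10.3, 6.76 and 8.35 CPM in healthy LSECs. It had 41.2 and 44.0 CPM at day 1, 63.8, 83.5, 24.04 and 14.6 at day 3, and 8.65, 46.1, 16.7 and 23.0 at day 7. The day 1 and day 3 samples all lay above the healthy ones, and day 3 replicates 1 and 2 were again the high pair. At day 7 the samples had the same order in Ednrb as in the stellate cell sum (674, 7893, 1826 and 3166 CPM in replicates 1 to 4). That sum was 2041, 1815, 1008 and 2859 CPM at day 3, and 370 and 451 at day 1, within the healthy range. The part of stellate cells in the Ednrb values was not tested. Ednrb was higher at day 1 (2.41 ± 0.62, adjusted p = 0.0449) and day 3 (2.54 ± 0.55, adjusted p = 0.016), and not called at day 7 (1.56 ± 0.54, adjusted p = 0.122). With the replicate number added to the edgeR model, the day 1 value was 2.06 (adjusted p = 0.126). The day 1 call was lost when any of 8 of the 14 libraries was left out (adjusted p 0.0559 to 0.274, the highest without day 1 replicate 1), and the day 3 call without healthy replicate 1 or 3 (up to 0.0544) and without day 3 replicates 1 and 2 (1.24, adjusted p = 0.132).

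The high pair at day 3 also had the most monocyte and neutrophil markers, as given above, and the most markers of other endothelium (2226 and 1969 CPM, against 1230 and 1075 in replicates 3 and 4). Kupffer cell and macrophage markers were highest in the same pair (2102 and 1904 CPM, against 814 and 836 in replicates 3 and 4). The part of these markers in the endothelin result was not tested.

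**Figure D3:**
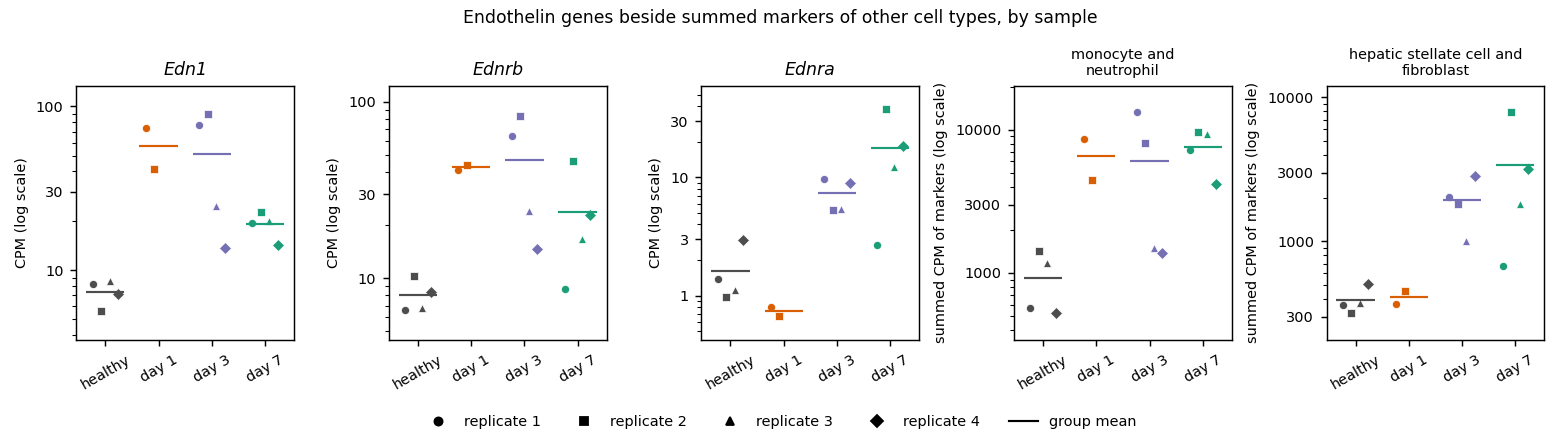
CPM (log axis) of Edn1, Ednrb and Ednra beside the summed CPM of 10 monocyte and neutrophil markers and of 12 stellate cell and fibroblast markers, per sample, with bars for group means. Day 3 replicates 1 and 2 (circle and square) are the high pair for Edn1, Ednrb and the monocyte and neutrophil sum, and Ednra is higher in the same groups as the stellate cell sum.

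Ece1 (chromosome 4, 137862237 to 137965229), cuts the endothelin precursor to its active form. Its range was 362 to 480 CPM in healthy LSECs, 373 and 477 at day 1, 186 to 538 at day 3, then 248 to 352 at day 7. It was not called on any day, with log2 fold changes of 0.05 (95% interval -0.66 to 0.77), -0.41 (-0.99 to 0.18) and -0.46 (-1.04 to 0.12). In the day 3 group, replicates 1 and 2 were low (186 and 191 CPM) where Edn1 and Ednrb were high. Without day 3 replicate 4 Ece1 was called lower at day 3, as it was without healthy replicate 4 and day 3 replicate 4 together (-0.93, adjusted p = 0.0425).

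Of the 5 other endothelin genes, 3 could be tested. Ednra, the receptor of contractile cells, had 1.39, 0.975, 1.11 and 2.96 CPM in healthy samples and 0.801 and 0.671 at day 1, was higher at day 3 (5.34 to 9.65 CPM, 2.19 ± 0.61, adjusted p = 0.046) and was higher at day 7 (2.66, 37.6, 12.3 and 18.3 CPM, 3.46 ± 0.64, adjusted p = 0.014), where replicate 1 overlapped with the healthy samples. The day 3 call was lost when any of 11 libraries was left out (adjusted p up to 0.124), the day 7 call without healthy replicate 1, 2 or 3 (up to 0.0607), and the rise ran beside the stellate cell markers, whose part in it was not tested. Per length, Ednrb exceeded Ednra 3.62 to 13.5 times in healthy samples, 66.0 and 84.1 times at day 1, 2.07 to 20.1 times at day 3 and 1.57 to 4.17 times at day 7. Mme, the neprilysin that degrades endothelin, had 0 counts in both day 1 samples and a mean of 0.440 CPM in healthy ones, and was called lower at day 1 (adjusted p = 0.00648). It was named after its values were seen, and a count of 0 allows up to 0.0359 CPM there (3 counts, counting error only). The ratio of Edn1 to Nos3, per length, was 0.107 to 0.177 in healthy LSECs, 0.338 and 0.177 at day 1, 2.60, 1.75, 0.853 and 0.275 at day 3, and 0.347 to 0.918 at day 7. All day 3 and day 7 samples thus had more Edn1 per Nos3 than any healthy sample.

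Adm (chromosome 7, 110627661 to 110629820), the relaxing peptide adrenomedullin, ranged from 51.7 to 75.9 CPM in healthy LSECs. It was 130 and 89.2 CPM at day 1, 76.4 to 114 at day 3, then 35.8 to 79.4 at day 7. The day 1 and day 3 samples did not overlap with the healthy ones, but the differences were not called (0.84 ± 0.29, adjusted p = 0.131, and 0.58 ± 0.24, adjusted p = 0.169). Adm was lower at day 7 than at day 1 (-1.0 ± 0.29, adjusted p = 0.0475), and this call was lost without any of 12 of the 14 libraries (adjusted p 0.0535 to 0.51, the highest without day 1 replicate 1).

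The receptor for Adm consists of Calcrl with Ramp2, and Ackr3 is a scavenger that takes Adm up. Calcrl fell at day 3 (423 to 232 CPM, -0.86 ± 0.21, adjusted p = 0.0239), and Ramp2 was not called (972 CPM in healthy samples, 835, 702 and 593 later). Ackr3 rose at day 1 (11.9 to 103 CPM, 3.12 ± 0.78, adjusted p = 0.0399) and day 3 (129, 227, 28.9 and 8.47 CPM, 3.05 ± 0.71, adjusted p = 0.0209), where replicate 4 lay below the healthy samples. Without day 3 replicates 1 and 2 the latter was 0.63 (adjusted p = 0.312). The Ackr3 calls were lost without any of 9 libraries at day 1 and 5 at day 3 (adjusted p up to 0.246 and 0.0658), and that of Calcrl without any of 5 (up to 0.068). In all, 1 of 7 tested adrenomedullin genes was higher at day 1, 1 was higher and 1 lower at day 3, and none was called at day 7.

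Ptgs1 (chromosome 2, 36230426 to 36252272), the constitutive cyclooxygenase, had 301, 320, 345 and 384 CPM in healthy LSECs. It had 205 and 265 CPM at day 1, 204, 168, 186 and 155 at day 3, and 252, 159, 184 and 250 at day 7, and all of these lay below the healthy values. It was lower at day 3 (-0.92 ± 0.18, adjusted p = 0.0105) and held this call without each library in turn and without day 3 replicates 1 and 2 (-1.02, adjusted p = 0.0239). The differences at day 1 (-0.52 ± 0.23, adjusted p = 0.248) and day 7 (-0.68 ± 0.18, adjusted p = 0.0622) were not called by edgeR, and DESeq2 and limma called the day 7 one.

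Ptgis (chromosome 2, 167191805 to 167240604), the prostacyclin synthase that acts after cyclooxygenase, was 6.08 to 8.96 CPM in healthy samples, 7.19 and 7.69 at day 1, 8.02 to 15.3 at day 3, then 5.64 to 23.4 at day 7. It overlapped with healthy at each time and was not called (-0.02, 0.65 and 0.94). The inducible cyclooxygenase Ptgs2 rose on all days, from 1.43 to 5.25 CPM to 35.9 and 32.2 at day 1 (3.35 ± 0.52, adjusted p = 0.00276), 18.4 to 63.7 at day 3 (3.35 ± 0.48, adjusted p = 0.00212) and 16.3 to 31.0 at day 7 (2.73 ± 0.46, adjusted p = 0.00961). Per length, its mean level at day 1 (7.44) was below that of Ptgs1 (60.5).

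Of 19 tested genes of prostanoid synthesis, receptors and clearance, 2 were higher and 1 lower at day 1, 5 and 2 at day 3, and 4 and 2 at day 7. Slco2a1, the prostaglandin transporter, rose at day 1 (302 to 750 CPM, 1.31 ± 0.24, adjusted p = 0.00837) and fell from there by day 3 (-1.11 ± 0.24, adjusted p = 0.0302). Tbxa2r, the thromboxane receptor, was lower on all 3 days (130 CPM in healthy samples, 57.0, 64.1 and 72.3 later). Tbxas1, the thromboxane synthase that macrophages also express, was higher at day 3 and day 7 (12.5 CPM in healthy samples, 24.2, 32.4 and 31.0 later), and Hpgds, a prostaglandin D synthase, likewise (7.87, 9.87, 26.9 and 21.5). Among healthy samples both were lowest in replicate 1 (7.06 and 4.78 CPM), as was the Kupffer cell and macrophage sum. The part of those cells in this result was not tested. Ptgir, the prostacyclin receptor, was near 0.344 CPM in healthy samples and higher at day 3 (1.41 CPM, 2.03 ± 0.50, adjusted p = 0.0271) and day 7 (2.20 CPM, 2.67 ± 0.51, adjusted p = 0.0163). The day 1 call of Slco2a1 was lost without day 1 replicate 1 (adjusted p = 0.0867), and that of Tbxa2r without healthy replicate 4 or either day 1 library (0.055 to 0.468). The day 7 call of Tbxa2r was lost without any of 12 libraries (up to 0.145), and those of Tbxas1, Hpgds and Ptgir without any of 4, 5 and 3 (up to 0.0676, 0.0871 and 0.0607), as was the day 3 call of Ptgir without any of 6 (up to 0.0835).

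Ace (chromosome 11, 105967945 to 105989964), the angiotensin-converting enzyme, was the least abundant of the 10 per length. It had 0.838, 1.27, 1.38 and 0.698 CPM in healthy LSECs, which is 61 to 133 counts. It had 12.0 and 10.6 CPM at day 1, 5.23, 10.0, 1.31 and 6.42 at day 3, and 0.894, 5.31, 2.65 and 2.41 at day 7. Both day 1 samples were above all others, day 3 replicate 3 lay within the healthy range, and day 7 overlapped with it. Ace was higher at day 1 (3.43 ± 0.67, adjusted p = 0.0105; 3.31 without day 1 replicate 1, adjusted p = 0.105) and day 3 (2.45 ± 0.59, adjusted p = 0.0241), and not called at day 7 (1.43 ± 0.57, adjusted p = 0.175). The day 3 call was lost without any of 5 libraries (adjusted p up to 0.075) and without day 3 replicates 1 and 2 (1.86, adjusted p = 0.092). Unlike Edn1 and Ednrb, Ace was high in day 3 replicate 4.

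Of 12 tested genes of the renin-angiotensin and kinin systems, 1 was lower at day 1 and day 3, and 1 was higher and 1 lower at day 7. The lower one each time was Enpep, the aminopeptidase that degrades angiotensin II (250 CPM in healthy samples, 74.9 at day 1, 69.1 at day 3 and 110 at day 7; -1.85 ± 0.29 at day 3, adjusted p = 0.00317). Anpep, which cleaves angiotensin III, was higher at day 7 (0.824 to 10.3 CPM, 3.65 ± 0.73, adjusted p = 0.019). Agtr1a, the angiotensin receptor of contractile cells, was not called against healthy (4.17 CPM in healthy samples, 1.34, 9.19 and 14.4 later). The calls of Enpep at day 1 and day 7 were lost without any of 3 and 10 libraries (adjusted p up to 0.346 and 0.151), and that of Anpep without any of 5 (up to 0.068). Among 5 tested natriuretic peptide genes, the clearance receptor Npr3 was higher at day 3 (0.425 to 3.29 CPM, 2.95 ± 0.74, adjusted p = 0.0293), a call lost without any of 5 libraries (up to 0.0865). In all, 105 of 113 such pathway genes could be tested. Of these, 10 were higher and 5 lower at day 1, 14 and 9 at day 3, and 9 and 7 at day 7. Of all genes tested, 2.42% were called higher and 1.64% lower at day 1. These shares were 4.62% and 2.58% at day 3, and 2.19% and 0.992% at day 7. The lists were chosen with earlier results of these data known.

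**Figure D4:**
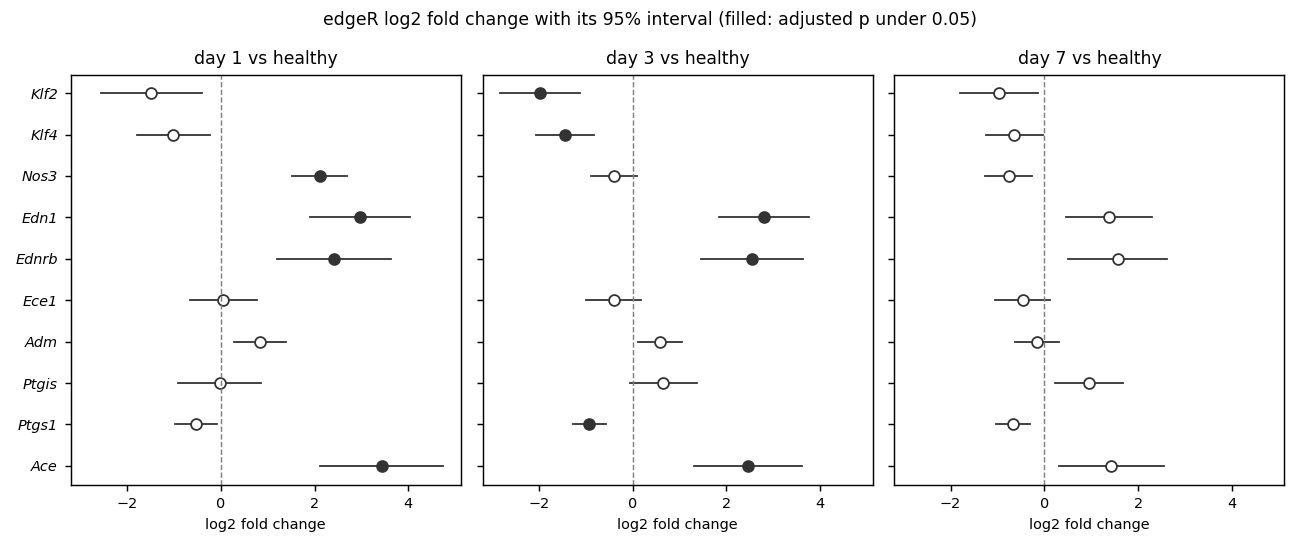
Log2 fold change against healthy LSECs of the 10 genes (points) with its 95% interval (lines) at day 1, day 3 and day 7. Filled points passed the edgeR test: Nos3, Edn1, Ednrb and Ace at day 1, and Klf2, Klf4, Edn1, Ednrb, Ptgs1 and Ace at day 3.

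Between days, 1 of the 10 genes was called from day 1 to day 3 (Nos3, lower), 0 from day 3 to day 7, where 1.77% of all genes were called (0.413% higher, 1.36% lower), and 2 from day 1 to day 7 (Nos3 and Adm, both lower). For the step from day 3 to day 7, 4 genes had an unadjusted p under 0.05, DESeq2 called 0 and limma called 6. Shares of all genes for these counts are not given here. Klf2 (1.004, adjusted p = 0.225) and Klf4 (0.80, adjusted p = 0.204) had higher means at day 7 than at day 3, and Edn1 a lower one (-1.42, adjusted p = 0.146), with samples that overlapped. The samples did not overlap for 5, 0 and 5 of the 10 genes in these steps, against 21.8%, 7.91% and 43.5% of all genes.

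The order of the 10 genes was compared per length, as CPM per kilobase of exon. In healthy LSECs Klf2 stood first (1231 ± 216, SD), followed by Klf4 (129 ± 29.4), Ptgs1 (86.9 ± 9.30), Ece1 (77.3 ± 10.8), Adm (38.0 ± 6.81), Nos3 (24.6 ± 5.85), Edn1 (3.45 ± 0.622), Ptgis (2.94 ± 0.496), Ednrb (1.88 ± 0.401) and Ace (0.198 ± 0.0625). The ranges of Klf4 and Ptgs1, Ptgs1 and Ece1, Adm and Nos3, Edn1 and Ptgis, and Ptgis and Ednrb overlapped. The group ranges thus do not order these neighbours, and their order within each sample was not compared. Klf2 was first and Ace last in every group. At day 1 Nos3 moved to second place (106 ± 5.91), with a range that overlapped neither neighbour's. At day 3 the genes from second to ninth place overlapped each with the next, from Ece1 (58.3 ± 31.1) to Ptgis (4.63 ± 1.39).

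**Figure D5:**
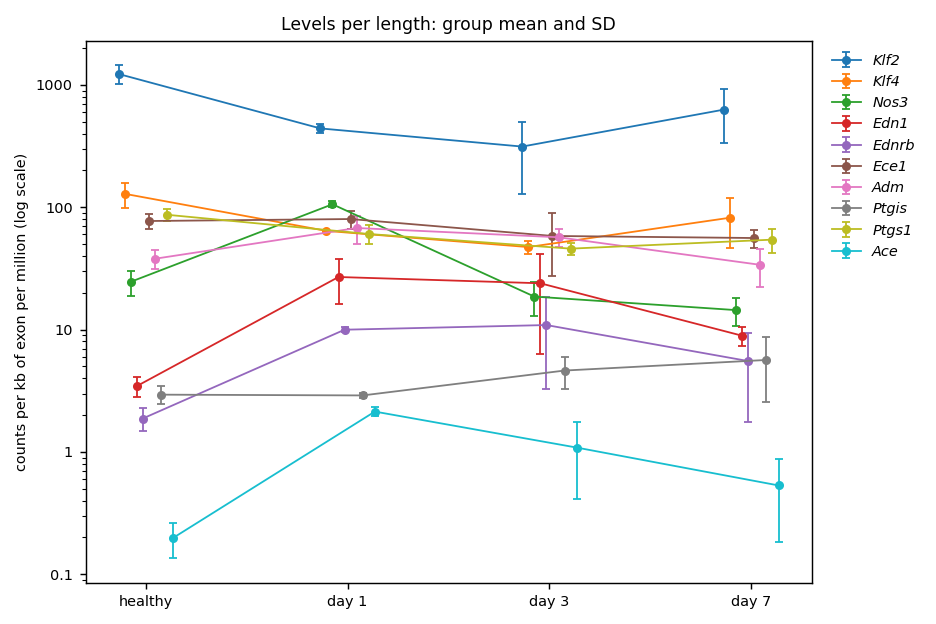
Group mean and SD of the 10 genes in CPM per kilobase of exon (log axis) for healthy LSECs and days 1, 3 and 7. Klf2 is first and Ace last in all groups, and Nos3 rises from 24.6 to 106 at day 1.

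For each of the 7 genes called against healthy, the genes with the most similar profile over the 14 samples were sought among 9987 genes, by the root mean square difference of centred log2 CPM. The nearest to Klf2 were Socs3 (0.40, beside a root mean square of 1.005 for Klf2 itself), Dusp5 (0.40) and Polr3gl (0.43). Those of Klf4 were Tmem252 (0.33, beside 0.70), Tiparp (0.35) and Bhlhe40 (0.35). Nos3 was closest to its antisense RNA Gm15587 (0.20, beside 0.98), whose counts may include reads of Nos3 over the shared exon bases, then to Cfap43 (0.32) and S1pr1 (0.35). Edn1 had S100a11 (0.44, beside 1.26), Gm12854 (0.46) and Slfn2 (0.47), and Ednrb had Rspo3 (0.49, beside 1.201), Emp3 (0.53) and Aprt (0.54), where Rspo3 is 1 of the 12 markers of other endothelium. The differences were not scaled to the root mean square of each gene itself. Ptgs1, where that was smallest of the 7, had the smallest differences, to Adgrl4 (0.10, beside 0.41), Gm8909 (0.12) and H2-Q2 (0.13). Ace, where it was largest, had the largest differences, to Kcnj8 (0.52, beside 1.40), Il17ra (0.61) and Emp1 (0.63).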

How the data were processed

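RNA from FACS-sorted LSECs was sequenced with SMART-Seq v4, which does not keep strand. Per the labels and methods, the authors checked reads with FastQC and AfterQC, aligned them to GRCm38.p6 with STAR, quantified them with StringTie and tested them with DESeq2. The authors deposited 1 table of whole-number counts per Ensembl gene, not normalized; the annotation release, the step from StringTie to whole counts and the use of strand are not given in the sources used here. Of 54524 rows, 54495 were named by GENCODE vM21 and 9902 had no count, and 0 per-sample columns were left unused.

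Counts were fitted in R 4.3.3 with edgeR 4.0.16 (TMM, filterByExpr with a minimum count of 10 and a total of 15, quasi-likelihood test), with the means of the 4 groups in 1 model of the 14 samples and p adjusted after Benjamini and Hochberg over 26626 genes (threshold 0.05). SE is the log2 fold change over the root of F, and intervals are 1.96 SE to each side (95% for a normal distribution). The F test allows for the few samples, so these intervals are narrower than those of the test. For Klf4 at day 7 the interval is -1.26 to -0.042, while edgeR's unadjusted p is 0.0553. CPM use TMM-scaled library sizes, and levels per length divide CPM by kilobases of merged exons. As alternatives, RLE size factors, library size alone, no filter or at least 10 counts in every sample, only the groups compared, the replicate block, leaving out each sample, limma 3.58.1 (voom, weighted samples) and DESeq2 1.42.0 were tried. Another 2 alternatives, which leave out pairs of samples, were chosen after seeing the data. The scripts were tested on simulated data. Depth was 46401496 to 103912264 counts, at which 3 counts are 0.0299 to 0.0661 CPM.

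The members and lists were chosen with earlier results of these data known. The text names all 10 genes, their direct partners, up to 3 called genes of largest change per list and day (mean of at least 1 CPM in a group), and the 3 most similar profiles (mean log2 CPM of at least 3), except for some results that are not reported here. Same-numbered samples did not deviate together (18 pairs, r from -0.232 to 0.0962, 0 over 0.1), and the main model has no block by number. This check cannot exclude a shared day of isolation or processing. With 2 samples, the day 1 deviations are mirror images of each other, so their pairs tell little.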

Additional observations from a re-analysis of the deposited data

Results flagged for a closer look

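The difference between days was tested for each of the 10 genes, and 3 of 30 such differences passed edgeR's test. Nos3 was lower at day 3 than at day 1 (log2 fold change -2.51, adjusted p = 0.00195) and lower at day 7 than at day 1 (-2.88, adjusted p = 0.000202), with no overlap between samples. Adm was lower at day 7 than at day 1 (-1.0, adjusted p = 0.0475), also with no overlap. The Adm call was lost without any of 12 of the 14 libraries. It was also lost in edgeR with RLE factors (adjusted p = 0.0616) and with library size alone (0.113). Of all genes, 2.54% were called from day 1 to day 3, 1.77% from day 3 to day 7 and 8.04% from day 1 to day 7. Samples did not overlap for 21.8%, 7.91% and 43.5% of all genes in these steps. In 30 groups of 4 samples, 0 had a sample whose gap to its neighbour passed Dixon's limit.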

How the results depend on the processing

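Of the 10 genes' values under other settings, 284 kept direction and side of the threshold, 27 newly passed, 13 no longer passed and 6 turned. The number of the 10 called against healthy (4, 6 and 0 at days 1, 3 and 7) was 7 at day 1 and 7 at day 7 with limma, and 3 at day 7 with DESeq2 and with only the groups compared. It was 3 at day 3 and 3 at day 7 without day 3 replicates 1 and 2, and 2 at day 7 without healthy replicate 4 and day 3 replicate 4. From day 1 to day 3 (1 called) it was 3 with limma and 2 without day 3 replicates 1 and 2, and from day 3 to day 7 (0 called) it was 6 with limma and 1 without healthy replicate 4 and day 3 replicate 4. From day 1 to day 7 (2 called) it was 4 with DESeq2 and with limma, and 1 with RLE factors, library size, no filter and at least 10 counts. The replicate block gave 2 at day 1, 1 from day 1 to day 7 and 8 other pathway genes at day 7. Edn1 and Ednrb lost their day 1 calls there (adjusted p = 0.0553 and 0.126 with edgeR). Whether samples of the same number share a day of work is not known. Of the other pathway genes (15, 23 and 16 called), DESeq2 called 24 at day 1 and 26 at day 7, limma 37, 46 and 47, and only the groups compared gave 23 at day 1 and 35 at day 7. Library size gave 8 at day 7, and the pairs of left-out samples gave 29 and 28. With each sample left out in turn, the 10 genes had 1 to 5 calls at day 1, 4 to 7 at day 3, 0 to 2 at day 7, 0 to 1 from day 3 to day 7 and 1 to 3 from day 1 to day 7, and the other pathway genes 4 to 19, 14 to 29 and 2 to 26. Day 1 replicate 1 gave the lowest count at day 1, and day 3 replicate 4 the highest at day 7. The cause was not tested. Over all genes, leaving out each sample in turn gave 164 to 1845 calls at day 1. At day 3 it gave 946 to 3314 calls, and at day 7 it gave 193 to 2166. Under DESeq2, limma and the other settings, the shares of all genes called are not given here. Counts under those settings therefore have no share to be set against.

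None of the values that turned in sign was called. For Ece1 these were -0.010, -0.0064 and -0.012 at day 1 with limma, no filter and without healthy replicate 4 and day 3 replicate 4, and 0.045 at day 3 without day 3 replicates 1 and 2. For Ptgis at day 1 they were 0.094 with limma and 0.067 without healthy replicate 4 and day 3 replicate 4. Without a filter, Thbd was -0.036 and Hmox1 -0.14 at day 3, and Hmox1 -0.13 at day 7; Hmox1 was -0.042 at day 3 with only the groups compared. Without day 3 replicates 1 and 2, day 3 values were -0.62 for Thbd, -0.052 for Hmox1 and -0.048 for Slco2a1. Leaving out single samples gave -0.16 to 0.19 for Ece1, -0.11 to 0.053 for Ptgis, -1.29 to 0.17 for Cav1, -0.0056 to 0.56 for Klf10, -0.13 to 0.62 for Hpgds and -0.66 to 0.84 for Anpep at day 1. It gave -0.23 to 0.30 for Thbd and -0.19 to 0.19 for Hmox1 at day 3, and -0.40 to 0.034 for Adm and -0.23 to 0.15 for Hmox1 at day 7. The median of all genes at day 3 was 0.18 with TMM and 0.20 with library size.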
